A study of Mus musculus with 6 samples.

Results

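The cytoplasmic ribosomal protein genes were examined in RNA from the foregut of mouse embryos. They were taken as every row whose symbol was Rpl or Rps followed by a number and at most 1 of the letters a, x, y or l, together with Rplp0, Rplp1, Rplp2 and Rpsa, and without rows named as pseudogenes or as S6 kinases. The rule found 79 of the 22564 features, 47 of the large and 32 of the small ribosomal subunit, and it used no measured value. The study asked which foregut transcripts depend on Gli2 and Gli3, through which Hedgehog signalling acts on transcription, and the 6 libraries came from 3 Gli2-/-;Gli3-/- double mutants and 3 Gli2+/-;Gli3+/- controls at E9.5. All animals were of mixed strain and undetermined sex. The controls were themselves heterozygous for both genes, so no wild-type foregut was compared. Each library was made from the dissected foregut of 1 embryo, unsorted, so that endoderm, mesenchyme, blood and vessels were measured together. The embryos had 19, 24 and 21 somites in controls 1, 2 and 3 and 19, 22 and 21 somites in mutants 1, 2 and 3. The youngest stage was therefore represented by the libraries numbered 1 alone, whose sample names also share a prefix, and stage, number and a possible shared litter cannot be told apart.

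Ribosomal proteins assemble with ribosomal RNA into the small subunit, which reads the mRNA, and the large subunit, which joins amino acids. Their genes are transcribed at high levels in growing tissue, and in mammals their mRNAs start with a short stretch of pyrimidines, the 5′ terminal oligopyrimidine (TOP) motif, through which the mTOR pathway adjusts their translation together. Partial loss of single members in the mouse or in people gives tissue-restricted defects, among them anaemia, pigment changes and skeletal patterning defects.

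The bases at the start of 8 members are shown because these members span the range of the differences described below, from Rplp2, Rps28, Rps10, Rpl38 and Rpl41, which stood high at 19 somites, to Rps6, Rpl4 and Rpl10a, which did not. Each run covers 15 bases on either side of the RefSeq transcription start on GRCm38.p6, that is the end of the promoter and the beginning of the first exon, and capitals mark the longest run of C and T touching the 10 bases on either side of the start.
Rplp2, chr7:141447636-141447665, + strand: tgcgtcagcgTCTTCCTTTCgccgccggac
Rps28, chr17:33824548-33824577, - strand: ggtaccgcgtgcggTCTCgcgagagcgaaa
Rps10, chr17:27635230-27635259, - strand: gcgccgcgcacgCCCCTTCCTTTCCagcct
Rpl38, chr11:114668565-114668594, + strand: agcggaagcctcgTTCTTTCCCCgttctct
Rpl41, chr10:128549154-128549183, - strand: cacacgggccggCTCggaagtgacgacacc
Rps6, chr4:86857353-86857382, - strand: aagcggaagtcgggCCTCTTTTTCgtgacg
Rpl4, chr9:64173372-64173401, + strand: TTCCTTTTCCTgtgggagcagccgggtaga
Rpl10a, chr17:28328456-28328485, + strand: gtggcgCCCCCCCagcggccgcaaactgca

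RefSeq promoters were matched for 58 of the 79 members. A pyrimidine run of at least 8 bases touched the 10 bases on either side of the start in 26 of the 58 members (44.8%). The same held for 13.5% of the promoters of 27025 genes. Such a run need not include the start itself. The letters CCGGAA, the core of the sites bound by ETS factors, stood on either strand of the 300-base window in 30 members (51.7%) and in 15.2% of all promoters. This motif can share bases with a pyrimidine run. Both kinds of letters occurred in members at both ends of the range. Rps6 and Rpl4 had runs of 10 and 14 bases, and Rps28 had a run of 4. The run of Rpl4 reached past the bases shown and ended before the start.

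Of the transcripts used to check the samples, Gli1, a direct Hedgehog target, read 37.8, 21.6 and 28.6 TPM (a length-corrected share of the library's transcripts) in controls 1 to 3 and 4.49, 2.30 and 1.44 TPM in mutants 1 to 3. Gli2 and Gli3 transcripts were still present in all mutants (18.0 to 37.0 and 53.7 to 97.4 TPM), and the sources used here do not say which exons the alleles lack. Foregut endoderm markers, among them Epcam, Cdh1 and Foxa2, summed to 558 to 910 TPM, and markers of primitive red cells to 0.356% to 3.25% of a library. Rows named only by a database accession took 23.5% of the TPM in mutant 1, 43.9% in control 2 and 34.6% to 36.6% in the other libraries. TPM is relative, so these rows lower the share left to all other genes.

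Together the 79 ribosomal protein genes held between 4.57% and 12.2% of the TPM of a library. Their share of the TPM was 9.36%, 4.57% and 5.65% for controls 1, 2 and 3, and for mutants 1, 2 and 3 it was 12.2%, 5.80% and 5.70%. The libraries of 19 somites were highest in both genotypes, and of the other 4 libraries control 2 was the lowest. The mean share was 10.8% ± 2.0 at 19 somites (SD, n = 2) and 5.43% ± 0.58 at 21 to 24 somites (SD, n = 4), a ratio of 1.99. Within the controls, number 1 stood 1.83-fold above the mean of numbers 2 and 3, and within the mutants 2.12-fold. Counted against genes with an annotated coding sequence only, the controls had shares of 15.4%, 8.62% and 9.44%, the mutants of 17.4%, 9.41% and 9.42%, and the ratio between the stages was 1.78. The higher share at 19 somites was thus also present when accession-named and noncoding rows were left out of the total. In bulk tissue, a larger share of cells rich in these mRNAs and more of them in each cell cannot be told apart.

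**Figure D1:**
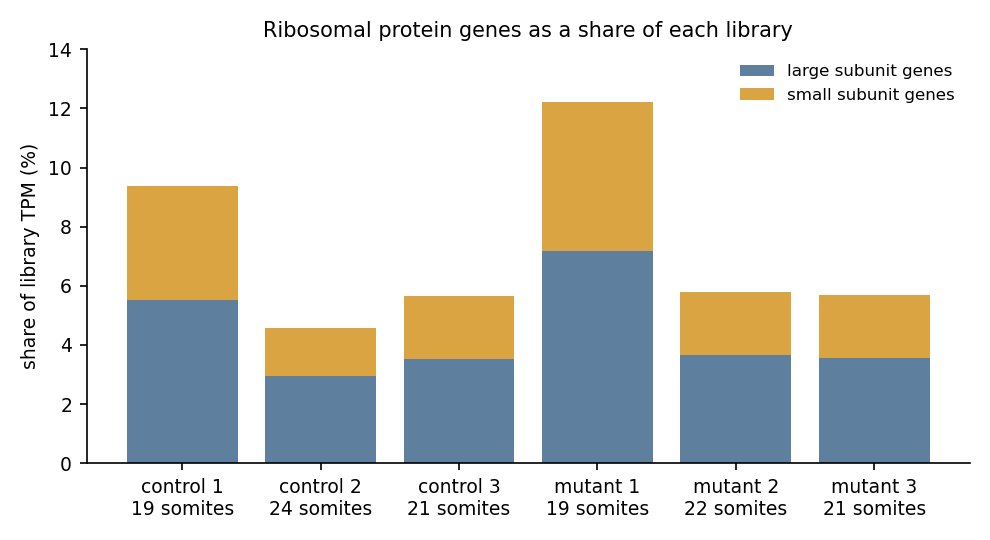
Share of each library's TPM (%, vertical axis from 0) held by large (blue) and small (yellow) subunit genes in the 6 libraries, with 1 bar for each embryo and its somites. Controls and mutants of 19 somites stand at 9.36% and 12.2%, and the other bars end between 4.57% and 5.80%.

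The balance of the subunits moved with the total. Large subunit genes held 5.51% of the TPM in control 1 and 7.18% in mutant 1, and 2.95% to 3.66% in the later libraries. Small subunit genes held 3.85% and 5.02%, and later 1.62% to 2.14%. The ratio of large to small subunit TPM was 1.43 in both libraries of 19 somites and 1.66 to 1.82 in the later ones, so the 2 sets did not overlap.

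Levels differed widely among the members. Mean TPM over the 6 libraries had a median of 754 over the 78 members that passed the filter of a mean of 1 TPM, and 26 of them were above 1000 TPM. Rpl41, which encodes a very short peptide of the large subunit, was the most abundant on average, at 8302.5, 2052 and 3928 TPM in controls 1 to 3 and 9574, 2951 and 3047 TPM in mutants 1 to 3. It was the first of all members in 4 libraries, and alone it made up 4.49% of the members' TPM in control 2 and 8.87% in control 1. In control 2 and mutant 2 the first member was Rpl10a, a large subunit protein of the stalk beside the exit site of tRNA, with 3496 and 3306 TPM. Controls 1 and 3 had 1980 and 2585 TPM of it, and mutants 1 and 3 had 2641 and 2572 TPM. Rpl10a thus took 2.11% and 2.16% of the members' TPM at 19 somites and 4.51% to 7.65% later.

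Of the paralogs with restricted expression, Rpl39l and Rps4l were at the low end. Rpl39l, the testis-enriched copy of Rpl39, read 0.13 TPM in control 1 and was listed at 0 in the other libraries, and it was the only member below the filter. Rps4l, annotated as a transcribed processed pseudogene, read 13.7, 5.21 and 9.77 TPM in the controls and 21.5, 5.99 and 6.29 TPM in the mutants. The X-linked Rps4x, a core small subunit protein, read 1518, 742 and 1292 TPM in the controls and 2336, 986 and 1404 TPM in the mutants. Rps27l, a p53-responsive copy of Rps27, stood between them, at 345, 67.7 and 154 TPM in the controls and 270, 100.2 and 140 TPM in the mutants. The paralog Rpl22l1, outside the symbol rule, read 321, 129 and 183 TPM in the controls and 350, 205 and 236 TPM in the mutants. Ribosomal protein genes have many processed copies in the genome, and the sources used here do not say how reads shared with such copies were assigned. The exons of 37 members share bases with another annotated gene, 18 of them on the opposite strand, and the library kit did not mark the strand.

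The order of the members was stable between embryos of one stage and less so across stages. Spearman's rho of their log2 TPM was 0.97 between the libraries of 19 somites, 0.95 to 0.99 among the 6 pairs of later libraries, and 0.84 to 0.89 for the 8 pairs that crossed the stages. These are descriptions over 78 genes of the same libraries, and genes are not independent replicates. Mutant 1 gave the highest value for 75 of the 78 members and control 2, the embryo of 24 somites, the lowest for 64. These libraries also had the smallest and the largest share of accession-named rows (23.5% and 43.9%). Counted without those rows, the members held 16.0% in mutant 1 and 14.3% in control 1. In control 2 they held 8.14%, against 8.88% to 8.92% in the other later libraries. Among the 4 later libraries the coefficient of variation of a member had a median of 17.5% and ranged from 4.77% for Rpl35 to 34.1% for Rplp1.

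The stages were compared gene by gene on log2(TPM + 1) with genotype in the model (limma, 14606 genes, Benjamini-Hochberg), a gene being called where the adjusted p was 0.1 or lower and the log2 difference 1 or larger. At 19 somites 44 of the 78 tested members were called higher (56.4%) and 0 lower, whereas 7.41% of all genes were called higher and 2% lower. A further 23 members had an adjusted p within the limit but a smaller difference, so that 67 were within the limit (85.9%), against 15.1% of all genes. In 71 members (91%) both libraries of 19 somites exceeded all later ones, and this held for 23.1% of all genes. In 0 members were they both below all later ones (20.4% of all genes). The median difference was 1.11 for the members, a median ratio of mean TPM of 2.16, and 0.02 for all genes. It was 0.97 for the 46 large subunit and 1.25 for the 32 small subunit members. Number 1 was higher than numbers 2 and 3 in each genotype taken alone, with a median difference of 1.02 in controls and 1.17 in mutants. These 2 sets of differences, which share no library, had a Pearson's r of 0.88 over the 78 members and 0.67 over all genes, again as a description. The calls needed both young embryos. With control 1 left out 1 member was called and with mutant 1 left out 0, and 63 and 54 members then had an unadjusted p under 0.05, while the medians stayed at 1.17 and 1.02. In those fits the lone library of 19 somites is assumed to vary like the others. Rescaling the libraries without the accession-named rows left 35 members called and moved the median of all genes from 0.02 to -0.14, and the share of all called genes that were higher fell from 78.8% to 54.6%.

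**Figure D2:**
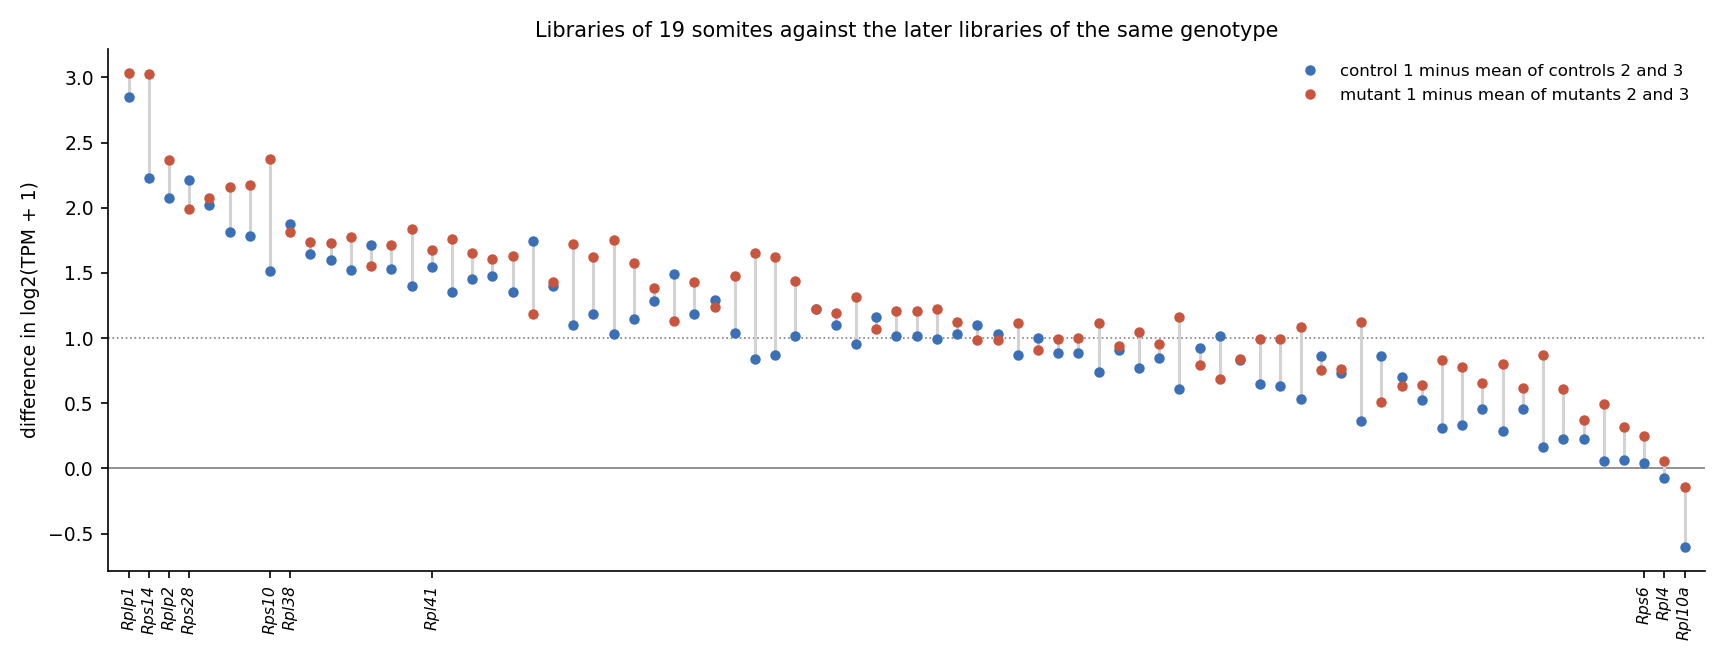
Difference in log2(TPM + 1) between the library of 19 somites and the mean of the later libraries of the same genotype (vertical axis) for the 78 tested members, ordered by the fitted difference and with 10 of them labelled, in controls (blue) and mutants (red). The dotted line marks a difference of 1, and the points run from Rplp1 at the left, with a fitted difference of 2.94, to Rpl10a at the right, with -0.37.

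The P stalk, the flexible arm of the large subunit that recruits elongation factors, held the largest difference. Rplp1 (chromosome 9, 61913284 to 61914542), an acidic protein of the stalk tip, read 620.1, 58.1 and 125 TPM in controls 1 to 3 and 673, 94.2 and 70.2 TPM in mutants 1 to 3. Both libraries of 19 somites lay far above the later ones, whose values crossed between the genotypes. The log2 difference was 2.94 ± 0.29 (SE, limma adjusted p = 0.0057), with a ratio of mean TPM of 7.44. Its partner Rplp2 read 1009, 196 and 292 TPM in the controls and 1532, 317 and 277 TPM in the mutants, a difference of 2.22 ± 0.20 (adjusted p = 0.0041). The core of the stalk, Rplp0, showed a smaller difference of 0.93 ± 0.23 and was not called, and neither was Rpl12 at its base, with 0.69 ± 0.26. Thus 2 of the 4 stalk genes were called, beside 56.4% of all tested members.

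Several small subunit members were also much higher at 19 somites. Rps14, at the exit of the mRNA channel, read 464, 85.2 and 114 TPM in the controls and 786, 102 and 89.7 TPM in the mutants. The libraries of 19 somites did not overlap with the later ones, and the difference was 2.63 ± 0.22 (limma adjusted p = 0.0038). Rps28, of the same region, read 2193, 357 and 624 TPM in the controls and 2319, 550.3 and 619 TPM in the mutants. Its difference was 2.10 ± 0.24 (adjusted p = 0.0070), and its exons share 88 bases with Kank3 on the opposite strand. Rps21 and Rps10 were higher at 19 somites by 2.05 ± 0.18 and 1.94 ± 0.26 on the log2 scale. The large subunit members Rpl37a and Rpl36 lay between them, with 1.99 ± 0.18 and 1.98 ± 0.18. Rps10 read 649, 199.8 and 257 TPM in the controls and 1322, 318 and 203 TPM in the mutants, and it shares 475 exonic bases with a read-through transcript of the same strand. All 3 proteins of the mRNA entry channel were called (Rps2, Rps3 and Rps9, differences of 1.41, 1.33 and 1.26), beside 56.4% of all tested members. Of 6 members listed at the exit sites of tRNA and mRNA 4 were called, among them Rps26 with 1.49. Of 8 listed at the peptide exit tunnel 2 were called.

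**Figure D3:**
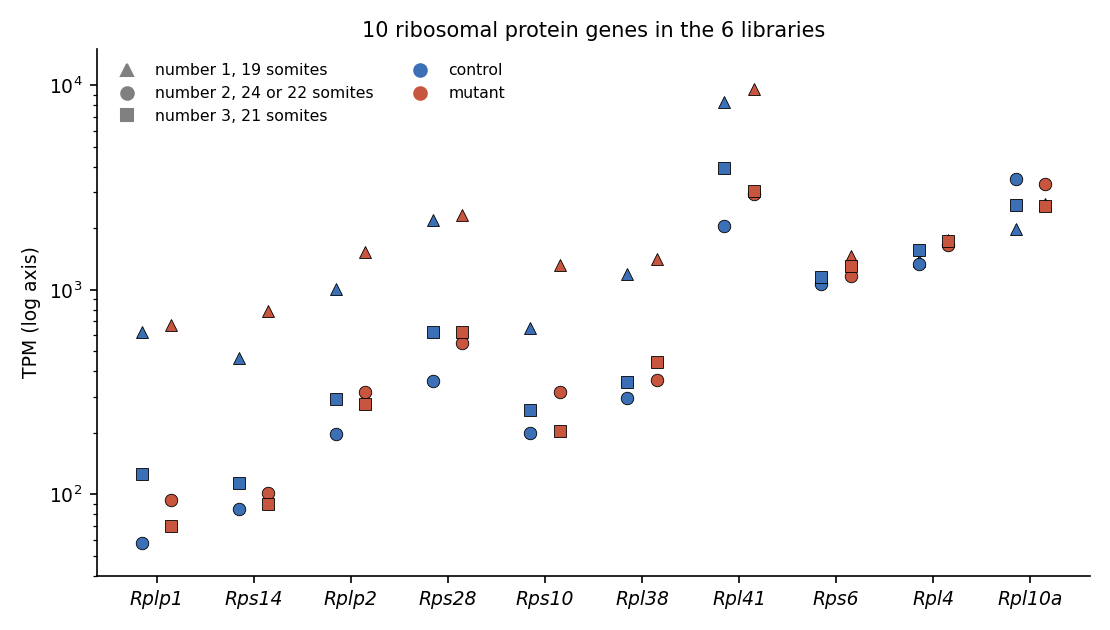
TPM (log axis) of 10 members in the 6 libraries, with controls in blue, mutants in red and the shape giving the replicate number and somites. For Rplp1 the triangles of 19 somites stand at 620.1 and 673 TPM above 58.1 to 125 TPM, while for Rps6, Rpl4 and Rpl10a at least 1 triangle lies among or below the other points.

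Some members showed no such difference. Rpl4, a large protein that lines the peptide exit tunnel, read 1384, 1344 and 1572 TPM in the controls and 1757, 1653 and 1724 TPM in the mutants. The stages overlapped, and the log2 difference between them was -0.01 ± 0.17 (limma adjusted p = 0.98). Rps6, the target of the S6 kinases, read 1145, 1064 and 1159 TPM in the controls and 1470.5, 1169 and 1307 TPM in the mutants, a difference of 0.15 ± 0.16 (adjusted p = 0.56). Rpl10a was the member with the lowest value, -0.37 ± 0.24 (adjusted p = 0.31). Rpl31, Rpl21 and Rpl10 also had differences of 0.30 or less, and the exons of Rpl31 share 420 bases with Tbc1d8 on the opposite strand. In all, 11 of the 78 members had an adjusted p above the limit. Among them was Rpl5, which with Rpl11 and 5S RNA forms the particle that binds Mdm2 when assembly is disturbed. The differences of Rpl5 and Rpl11 were 0.54 ± 0.21 and 0.74 ± 0.22, and neither was called. These values concern mRNA, and protein was not measured.

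The genes known from human or mouse phenotypes were counted in the same way, beside the 56.4% of all tested members and 7.41% of all genes called higher. Of 20 genes mutated in Diamond-Blackfan anaemia, a failure of red cell production, 11 were called higher, among them Rps19, Rps26 and Rpl35a with differences of 1.24, 1.49 and 1.63. Of 6 genes known from mouse mutants with patterning or pigment defects 4 were called. Rpl38, whose loss in the mouse disturbs the axial skeleton and the translation of Hox mRNAs, read 1193, 296 and 354 TPM in the controls and 1418, 363 and 445 TPM in the mutants. It was higher at 19 somites by 1.85 ± 0.16 (limma adjusted p = 0.0041). Rpl24, Rps19 and Rps20 were called with differences of 1.13, 1.24 and 1.04, and Rpl27a and Rps7 had 0.75 and 0.55. Of the 4 X-linked genes Rpl36a was called, with 1.26, and Rps4x, Rpl39 and Rpl10 had 0.81, 0.86 and 0.30. Rps27a, whose protein is made fused to ubiquitin, was called with 1.31.

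Of the ribosomal protein genes that fall outside the symbol rule, Fau, whose protein is fused to a ubiquitin-like one, was called with 1.98, and Gnb2l1, the older name of the scaffold Rack1, with 1.06. The 6 rows named as ribosomal protein pseudogenes summed to 1047 to 1637 TPM, with 1262 and 1637 TPM at 19 somites and 1473 TPM in control 2, so these rows overlapped between the stages.

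The difference varied with the length of the coding sequence, in the members and in other genes alike. Across the 77 tested members with a coding length, the log2 difference and log2 length had a Pearson's r of -0.53 (Spearman's rho -0.59), and across 11892 other protein-coding genes -0.39 (rho -0.37). With the GC content of the coding sequence r was 0.37 and 0.38. Among other genes of at most 300 coding bases the median difference was 0.68 and 33.6% were called higher, and above 3000 bases the median was -0.31 and 1.12% were called higher. In the shortest class the 10 members had a median of 1.66 and 9 were called. The median of the members exceeded that of other genes in each of the 5 length classes that held any. Nearly all members are short, so the length trend was removed from each library in an alternative chosen after the data were seen. The members' median was then 0.61 against -0.02 for all 11969 genes, 20 of 77 members were called (26%) and 4.21% of all genes were called higher. Among the 20 were Rplp1, Rplp2, Rpl8, Rpl13, Rpl14, Rpl29, Rpl34, Rpl35, Rpl35a, Rpl36, Rpl37a, Rpl38, Rps2, Rps3, Rps10, Rps13, Rps14, Rps21 and Rps28, and all 20 had also been called without it. Member medians were 1.19 (n = 26) with and 1.11 (n = 31) without a pyrimidine run of at least 8 bases near the start. With and without CCGGAA they were 0.94 (n = 29) and 1.11 (n = 28).

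**Figure D4:**
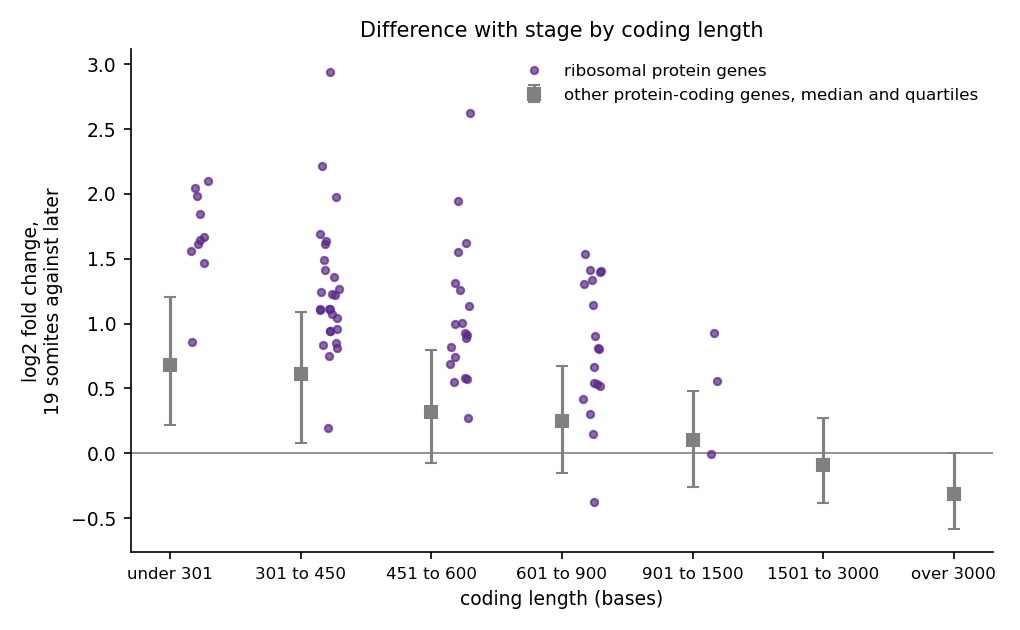
Log2 difference between 19 somites and later (vertical axis) by class of coding length in bases, with grey squares and bars for the median and quartiles of other protein-coding genes and purple points for the 77 tested members with a coding length. The grey medians fall from 0.68 to -0.31, and the median of the members lies above them in each class that holds any, from 1.66 against 0.68 in the shortest class to 0.56 against 0.10 in the class above 900 and up to 1500 bases.

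Other genes of the translation machinery gave smaller values, and their counts stand beside the 7.41% of all genes called higher. Mitochondrial ribosomal proteins, which build the separate ribosome of that organelle, had a median difference of 0.64 with 16 of 77 called higher, Mrps12 and Mrpl23 among them with 1.78 and 1.59. With the length trend removed the median was 0.25. The 20 other mRNAs with a TOP motif had a median of 0.21, with Eif3k (1.38) and the noncoding RNA Gas5 (1.14) called. The abundant elongation factor Eef1a1, a TOP mRNA as well, read 2440, 2548 and 2583 TPM in the controls and 3141, 3023 and 2727 TPM in the mutants, and did not separate the stages. Among 39 tested ribosome biogenesis genes the median was 0.25 with 4 called higher, including Gar1 and Nhp2 of the H/ACA particle, and Nop56 of the box C/D particle called lower by -1.04. None of 13 RNA polymerase I subunits and factors was called (median 0.48), and of 23 translation initiation factors Eif1ax was called (median 0.24). With the length trend removed, the medians of the TOP, biogenesis, RNA polymerase I and initiation sets were 0.15, 0.28, 0.22 and 0.14. These sets were not tested against the members.

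Some markers of other cells also differed between the stages. Of 7 cardiomyocyte markers 4 were called higher at 19 somites (7.41% of all genes), Myh6 by 2.76, Tnnt2 by 1.55, Myl7 by 1.97 and Tnni1 by 1.63. Their sum over all 7 was 799 and 1602 TPM at 19 somites and 291 to 1202 TPM later, so it overlapped between the stages, and none of the 7 was at 0 in any library. Markers of primitive red cells summed to 3561 and 8935 TPM at 19 somites and 6664 to 32502 TPM later, which overlapped as well, and 1 of 9 was called lower. Of 6 foregut endoderm markers 1 was called lower, and of 3 splanchnic mesoderm markers 0 were called. The part of heart or blood cells in the ribosomal protein values was not tested.

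By genotype, no ribosomal protein gene was called. The mean share of TPM was 6.53% ± 2.52 in controls and 7.90% ± 3.72 in mutants (SD, n = 3 each), and the ranges overlapped. Without the libraries numbered 1 it was 5.11% ± 0.76 and 5.75% ± 0.07 (SD, n = 2 each). The limma test on genotype called 0 of 78 members, against 6 of 14606 genes (0.0411%), and at an unadjusted p under 0.05 it found 0 members against 597 genes (3.07% higher, 1.01% lower). The median log2 difference, mutant minus control, was 0.25 for the members and 0.11 for all genes tested. Without mutant 1 the members' median was -0.13, and without control 1 it was 0.61, so that its sign turned with 1 young library. A median-of-ratios scaling of the libraries took the medians to 0.11 and -0.01, and rescaling without accession-named rows to 0.10 and -0.02. With the replicate number as a block 30 genes (0.205%) were called and 0 members, and the lowest adjusted p of a member was 0.40. The fit without the block held no term for stage, so the difference between the stages counted as spread within each genotype. For Rplp1 the SE was 1.04 there and 0.27 with the block, and for Rpl4, with no stage difference, 0.24 and 0.14. Its 0 members at an unadjusted p under 0.05 therefore cannot be compared with the share of all genes.

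The largest positive value by genotype was that of Rps2, 0.56. Rps2, a protein of the mRNA entry channel, read 557, 215 and 312 TPM in controls 1 to 3 and 1097, 388 and 283 TPM in mutants 1 to 3. The genotypes overlapped, and mutant 3 was below control 3. The lowest value was -0.01, for Rplp1. The difference was above 0 in 77 of 78 members and in 69.8% of all genes. The genotypes did not overlap in 2 members (2.56%), Rpl4 and Rps6, with mutants higher, against 6.68% of all genes. They did not overlap with mutants lower in 0 members, against 1.68% of all genes. Where both libraries of 19 somites exceed all later ones, the genotypes must overlap. Both exceeded all later ones in 71 members (91%) and in 23.1% of all genes, so the shares without overlap cannot be compared. The mean of Rpl4 was 1433 ± 122 TPM for controls against 1711 ± 53 TPM for mutants (SD, n = 3 each), with a limma adjusted p of 0.999 (0.60 with the block). That of Rps6 was 1122 ± 51 against 1315 ± 151 TPM.

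Set against each other by number, the pairs differed in unlike ways. In number 1, at equal somites, 76 of 78 members were higher in the mutant (62.1% of all genes), with a median difference of 0.40 against 0.11 for all genes. In number 2, where the control had 24 and the mutant 22 somites, 73 were higher (72.7% of all genes), with 0.41 against 0.23. In number 3, at 21 somites in both, 43 were higher (51.7% of all genes), with 0.02 for the members and 0.02 for all genes. The mutant's share of TPM over the control's was 1.30, 1.27 and 1.01 in numbers 1, 2 and 3. Without accession-named rows these ratios were 1.11, 1.09 and 1.00. The mutant exceeded the control in all 3 numbers for 39 members (50%), and for 25.7% of all genes. With the block, 13 members had an unadjusted p under 0.05, all higher in mutants (16.7%, against 7.94% of all genes), among them Rps2, Rps20, Rps26, Rpl36a and Rpl38. With somite number as a covariate in place of the block, the members' median was 0.09, equal to that of all genes, and 0 members had an unadjusted p under 0.05. A genotype difference that depended on the stage was tested as an interaction, for which 0 of 78 members and 0 of 14606 genes had an adjusted p within the limit, and 0 members and 237 genes an unadjusted p under 0.05.

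**Figure D5:**
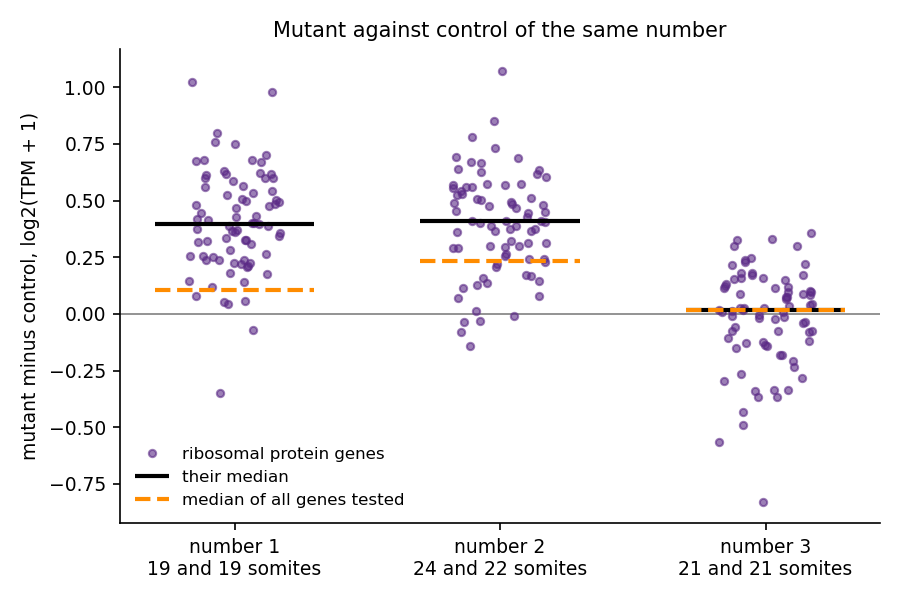
Difference in log2(TPM + 1) between the mutant and the control of the same number (vertical axis) for the 78 tested members, with their median (black) and that of all genes tested (dashed orange). The members' medians are 0.40, 0.41 and 0.02 for numbers 1, 2 and 3, against 0.11, 0.23 and 0.02 for all genes.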

How the data were processed

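The authors deposited 1 table of TPM values for 6 libraries. Per the labels, SMART-Seq v4 amplified polyadenylated RNA and Nextera XT made the libraries, neither of which keeps strand. Per the methods, reads were aligned to mm10 in the CSBB pipeline. The sources used here name neither quantifier nor annotation. TPM keeps no read depth, so depth is unknown, and p-values measure the spread between these embryos only. Genes averaging 1 TPM or more were compared as log2(TPM + 1) with limma 3.58.1 in R 4.3.3 (trend, two-sided, Benjamini-Hochberg), a scale that understates differences of low genes. The study's RUVSeq test needs counts. The limits given in its methods (adjusted p of 0.1, log2 difference of 1) were kept, and the stricter adjusted p of 0.05 given elsewhere in it was tried. Coding length and GC came from GENCODE M21, promoters from RefSeq. Deviations of same-numbered libraries from their genotype means had r = 0.67, 0.37 and 0.15. The value for number 1 is the stage correlation given above, so it cannot tell pairing from the shared stage. No label states that the numbers pair samples. The paper calls the controls littermates, while its reporting form places the embryos in separate litters. The replicate block was therefore run only as an alternative. The members, the gene lists (textbook knowledge) and the tests were chosen with earlier results of these data known. Genes named were the 10 most abundant members, the extremes of each comparison, called members and the listed groups. The script was tested on simulated data.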

Additional observations from a re-analysis of the deposited data

Results flagged for a closer look

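Among the 4 libraries of 21 to 24 somites, control 2 (24 somites) lay apart in the share of TPM held by the ribosomal protein genes. It stood at 4.57% against 5.65% to 5.80%, and its gap to the nearest library was 0.874 of the range, above Dixon's critical value at 95% for a group of 4. The same held for Rpl32, a protein of the large subunit, at 619 TPM in control 2 and 942 to 964 TPM in the other 3 (0.939 of the range). Chance gives about 1 such value in 20 independent groups, and 41 groups were examined, of which these 2 passed. The 41 groups come from the same 4 libraries and are not independent, so this rate does not apply to them. Control 2 also had the largest share of accession-named rows (43.9%), which lowers the share left to other genes. Without those rows it was still the lowest, at 8.14% against 8.88% to 8.92% in the other later libraries. The cause was not tested.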

How the results depend on the processing

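The 44 members called higher at 19 somites became 43 to 44 with other pseudocounts, filters or a median-of-ratios scaling, 35 without accession-named rows and 50 when scaled without the members. They became 20 with the length trend removed, 67 with adjusted p alone, and 0 to 51 when 1 library was left out. The members' median of 1.11 became 0.61 with the length trend removed and was 1.01 to 1.20 with 1 library left out. The 1375 genes called by stage became 627 with a pseudocount of 5, 797 with the length trend removed, 3905 with adjusted p alone, and 11 (without mutant 1), 24 (without control 1) or up to 1591 with 1 library left out. By genotype 0 members were called under each of the alternatives run. The 6 genes called by genotype became 30 with the replicate block, 27 with somite number as a covariate, 0 without both libraries numbered 1, 3 with no filter, 1 at a mean of at least 5 TPM, 12 without accession-named rows, 3 at an adjusted p under 0.05 (a limit added after the data were seen, under which 44 members were called by stage), 16 with the length trend removed, and 0 to 5 with 1 library left out. The replicate block left the share difference at 1.38 percentage points and the members' median at 0.25. The share difference became 0.80 points without accession-named rows, 0.90 against coding genes, 0.65 without both libraries numbered 1 and -0.77 to 2.79 with 1 library left out, and the genotype median -0.13 to 0.61. Of 599 values for named members by stage, 62 lost the call and 7 gained it, and 0 called values changed sign. Apart from the length trend, whose removal lowers the values of short genes by construction, the causes were not tested. TPM hides depth, so low values such as those of Rps4l carry an unknown counting error.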
